A study of Mus musculus with 6 samples.

Results

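ATP-sensitive potassium (KATP) channels couple the energy state of a cell to its membrane potential: they are shut by ATP, opened by ADP, and opened pharmacologically by vasodilators. Each channel is built from a ring of pore-forming Kir6 subunits, encoded by Kcnj8 (Kir6.1) or Kcnj11 (Kir6.2), surrounded by sulfonylurea receptors of the ABC transporter family, encoded by Abcc9 (SUR2) or Abcc8 (SUR1). The Kcnj8 and Abcc9 pair is the one known from vessel walls, in smooth muscle and pericytes, and endothelial cells also have KATP currents. Kcnj11 and Abcc8 form the channel of the pancreatic beta cell. Kcnj2 encodes Kir2.1, a strong inward rectifier without a sulfonylurea receptor, which is known for holding the resting potential of endothelial cells and for its response to flow. These 5 genes, of 18193 with a probe set of their own, were followed here. They were chosen by name because the Kcnj8 signal had been seen to lie at the floor in knockout cells, and all 9 of their probe sets that the platform annotation gives to 1 gene alone are shown.

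Expression was measured in cultured mouse lung endothelial cells after 16 h at 0.5% oxygen, on 3 knockout and 3 control arrays. Knockout cells came from mice with Cre under the VE-Cadherin promoter and both alleles of HIF-2a (Epas1, an oxygen-regulated transcription factor) floxed. The labels describe the controls in 3 ways, as carrying VE-Cadherin-Cre with 1 floxed HIF-2a allele, as floxed on both alleles, and as wild type. Nothing in the labels tells if replicate arrays stem from separate animals or cultures, and the p-values cover the spread among these 6 arrays, which may be technical. Per the labels the cells were selected repeatedly on endothelial markers and checked by flow cytometry, and no array at normal oxygen was part of the design.

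The deposited values were intensities on a linear scale, with a large share of probe sets at nearly the same low value, and a signal under 16 was treated as the floor, that is, as not above background rather than as absence. Of all genes, 45.5% were under this floor on all 6 arrays. Epas1 itself had signals of 8920, 9397 and 9859 in its bright probe set on knockout arrays 1 to 3, against 9611, 9590 and 9444 on control arrays 1 to 3, a log2 difference of -0.02 (limma adjusted p = 0.768 in the fit over probe sets, in which 7.65% of probe sets passed at an adjusted p under 0.05). The position of these probes relative to the floxed exons was not used here, so the genotype rests on the labels. Controls 1 and 3 were closer to each other than the other pairs within a group (SD of the log2 difference over genes 0.137, against 0.307 to 0.678), and the log2 level of the bacterial spike-in probe sets ran from 10.8 to 11.1 on knockout arrays and from 10.6 to 10.9 on control arrays. The number of arrays limits the precision.

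Among the pore-forming subunits, Kcnj8 was the member with signal. Its single probe set read 4.53, 4.92 and 4.35 intensity units on knockout arrays 1 to 3, against 599, 953 and 530.0 on control arrays 1 to 3. The 3 knockout arrays lay within a narrow band at the floor, control 2 was the brightest, and the groups did not overlap. The means were 4.60 ± 0.294 in knockout cells and 694 ± 227 in control cells (SD, n = 3 each). Because the knockout arrays were at the floor, the size is a lower bound of at least 42.0-fold lower in knockout cells, taken from the geometric mean of the controls over the floor signal of 16, and at least 35.2-fold without control 2. On the log2(intensity + 16) scale the difference, knockout minus control, was -5.06 ± 0.23 (SE), and it lay between -5.23 and -4.81 when each array was left out in turn. These values chose the genes described here and are given as a description, without a test.

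**Figure D1:**
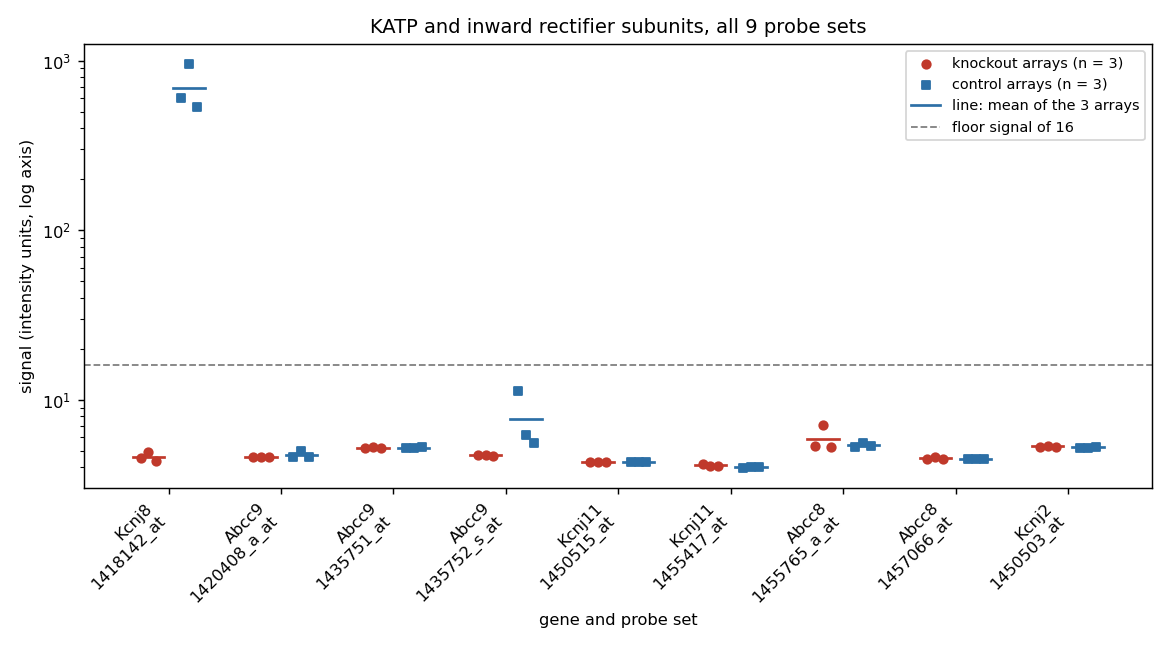
Signal of each probe set of Kcnj8, Abcc9, Kcnj11, Abcc8 and Kcnj2 in intensity units on a log axis, with 1 point per array, a line at the mean of the 3 arrays of a group and a dashed line at the floor signal of 16. The Kcnj8 probe set lies under the floor in the knockout arrays and between 530.0 and 953 in the control arrays, and the other 8 probe sets lie under the floor on all 6 arrays.

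Kcnj11, the other pore-forming subunit, stayed at the floor in both groups. Its brighter probe set read 4.31, 4.32 and 4.30 on knockout arrays, against 4.30, 4.29 and 4.32 on control arrays. Its dimmer probe set read 4.20, 4.09 and 4.05 on knockout arrays, against 3.96, 4.04 and 4.03 on control arrays. These readings differ in the decimals of the floor, both probe sets were too dim to enter the fit, and no fold is given.

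The sulfonylurea receptor Abcc9, the regulatory partner of Kir6.1, was not above the floor in either group, including the control arrays in which Kcnj8 had signal. Its brightest probe set read 4.69, 4.72 and 4.69 on knockout arrays, against 11.3, 6.24 and 5.56 on control arrays. All 3 controls were above all 3 knockouts, with control 1 apart from the others, yet every value was under 16. Its log2 difference was -0.19 ± 0.10 (SE) and did not pass (limma adjusted p = 0.273 over all genes). Groups that did not overlap, with the knockout arrays lower, were found in 12.8% of all genes tested. With array weights the Abcc9 difference was -0.32 and passed (limma adjusted p = 0.00872), in a setting that called 8533 genes and whose estimation of the weights stopped before convergence. The suffix of this probe set's name marks probes that can also match other transcripts. The remaining Abcc9 probe sets overlapped between groups, with 5.17 to 5.26 over the 6 arrays in one and 4.57 to 4.99 in the other.

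Abcc8, the receptor of the beta cell channel, was at the floor in both groups as well. Its brighter probe set read 5.34, 7.08 and 5.30 on knockout arrays, against 5.27, 5.56 and 5.34 on control arrays. Knockout 2 was the highest array, the groups overlapped, and the log2 difference of 0.03 ± 0.04 did not pass (limma adjusted p = 0.613). Without knockout 2 it was -0.0048, so its sign rested on that array. The dimmer probe set stayed between 4.47 and 4.58 on the 6 arrays.

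Kcnj2, the strong inward rectifier, read 5.29, 5.37 and 5.26 on knockout arrays, against 5.23, 5.21 and 5.29 on control arrays. The groups overlapped at the floor, and the log2 difference was 0.0045 ± 0.01 (SE; limma adjusted p = 0.888). Among the tested members other than Kcnj8, that is Abcc9, Abcc8 and Kcnj2, 0 of 3 passed at an adjusted p under 0.05, and 0 of 3 at an unadjusted p under 0.05. All 3 were under the floor on all 6 arrays, so these counts of 0 are not read as a lack of change. Over all genes tested, 13.7% passed at an adjusted p under 0.05, with 8.64% higher and 5.07% lower in knockout cells. The share of all genes at an unadjusted p under 0.05 was not taken and is at least that 13.7%, so counts at that threshold have no exact background here. With both groups at the floor, a difference in Kcnj2, Kcnj11 or Abcc8 was not detectable on these arrays.

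The sequences just before the transcription starts of Kcnj8, Abcc9 and Kcnj2 are shown because HIF proteins bind short motifs with the core ACGTG or GCGTG, and because Kcnj8 and Abcc9 are next to each other on chromosome 6 while their signals differed. Each is the stretch of 250 bases before the start that the RefSeq promoter table lists, build GRCm38.p6, read 5′ to 3′ on the gene's strand, with every match to ACGTG or GCGTG on either strand in capitals. Kcnj8 lies at chr6:142571615-142571864, minus strand. Abcc9 lies at chr6:142702275-142702524, minus strand, a start that lies inside the outer bounds of the gene in RefSeq, so the sequence before its outermost start is not shown. Kcnj2 lies at chr11:111065914-111066163, plus strand.
Kcnj8: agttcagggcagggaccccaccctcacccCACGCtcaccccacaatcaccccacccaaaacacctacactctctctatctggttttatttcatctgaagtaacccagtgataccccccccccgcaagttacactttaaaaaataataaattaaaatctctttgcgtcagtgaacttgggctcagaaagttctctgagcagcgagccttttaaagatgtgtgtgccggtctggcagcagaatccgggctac
Abcc9: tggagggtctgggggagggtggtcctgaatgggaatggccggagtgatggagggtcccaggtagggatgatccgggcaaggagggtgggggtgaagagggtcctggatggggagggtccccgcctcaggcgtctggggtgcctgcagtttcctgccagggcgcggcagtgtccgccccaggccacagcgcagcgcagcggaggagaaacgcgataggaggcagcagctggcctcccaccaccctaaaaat
Kcnj2: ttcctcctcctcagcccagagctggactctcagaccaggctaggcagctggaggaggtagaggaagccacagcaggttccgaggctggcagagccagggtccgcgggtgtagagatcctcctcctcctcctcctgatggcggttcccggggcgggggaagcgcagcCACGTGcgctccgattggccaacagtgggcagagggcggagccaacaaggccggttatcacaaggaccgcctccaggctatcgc

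The Kcnj8 stretch held 1 match, CACGC, the reverse complement of GCGTG, which began 221 bases before the start. The Abcc9 stretch held 0, which says nothing of the sequence before the outermost start. In the Kcnj2 stretch CACGT and ACGTG overlapped in a single palindrome that began 84 bases before the start. Of 32851 such stretches in the promoter table, 38.6% held at least 1 match to either core, 28.2% to GCGTG and 16.6% to ACGTG. A match of 5 letters is a description of the sequence and not a binding site. The base composition differed too, with 49.2% G and C before Kcnj8, 66.8% before Abcc9 and 65.6% before Kcnj2.

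Genes next to the members in the RefSeq order were mostly at the floor or without a probe set of their own. Of the 10 genes flanking Kcnj8 and Abcc9, 4 could be measured and 3 of these were under the floor on all 6 arrays. The nearest measured gene on one side was Ldhb, a lactate dehydrogenase subunit, with 6.91, 7.21 and 6.86 in knockout cells, against 6.90, 6.89 and 6.92 in control cells. On the other side it was the noncoding 5330439B14Rik, with 4.72 to 4.77 in knockout cells and 4.70 to 4.74 in control cells. The measured neighbour with signal was Cmas, which activates sialic acid, named after its values were seen. It read 8637, 10263 and 8978 in knockout cells, against 10325, 10905 and 10328 in control cells, and its log2 difference of -0.18 ± 0.07 did not pass (limma adjusted p = 0.177). Around Kcnj11 and Abcc8, on chromosome 7, 6 of 10 flanking genes could be measured. The nearest on one side, Nomo1, a protein of the endoplasmic reticulum membrane, had a log2 difference of 0.28 ± 0.06 and did not pass (limma adjusted p = 0.0571), and the nearest on the other, Ush1c, was at the floor. Beside Kcnj2, on chromosome 11, 1 of 10 could be measured, its family member Kcnj16, which was at the floor with 4.79 to 4.84 in knockout cells and 4.75 to 4.81 in control cells.

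Over all 18193 genes, 27 (0.148%) were, like Kcnj8, over the floor on all control arrays and under it on all knockout arrays, and 52 (0.286%) showed the opposite. The others include Peg3, an imprinted zinc finger gene, the glutathione transferase Mgst1 and Asb4, with signal at least 241-fold, at least 52.9-fold and at least 49.0-fold lower in knockout cells. Each bound is the control signal over the same floor, so the bounds of different genes are not ranked against each other. Kcnj8 was chosen for these values, and the counts are a description.

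**Figure D2:**
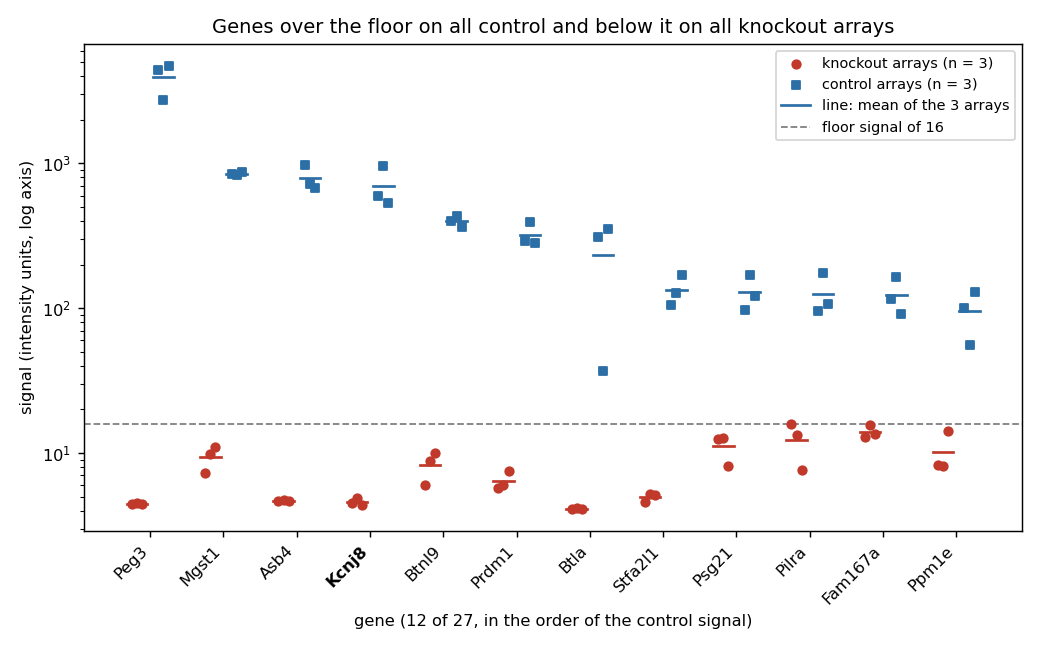
Signal in intensity units on a log axis for the 12 genes with the highest lower bound on the fold among the 27 that were over the floor of 16 on all control arrays and under it on all knockout arrays, with 1 point per array and a line at each group mean. Kcnj8 is in bold, with its brightest value in control 2, and the order follows the control signal of each gene's own probe set.

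The genes most like Kcnj8 over the 6 arrays were Trim15 (Pearson r = 0.9998), Prdm1 (r = 0.9995), Megf6 (r = 0.998), Stab2 (r = 0.998) and Col5a1 (r = 0.997), among 741 other genes with a range of at least 2 on the log2(intensity + 16) scale. The arrays fall into 2 groups, so these correlations are set mainly by the difference between the groups, and they are given without a p. Prdm1, a zinc finger repressor, read 5.70, 6.01 and 7.49 in knockout cells, against 292, 395 and 281 in control cells. Stab2, a scavenger receptor of sinusoidal and lymphatic endothelium, read 38.7, 39.6 and 38.8 in knockout cells, against 230.1, 281 and 257 in control cells.

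The rest of the Kir family was not measurable. All 12 other Kir genes, from the renal Kcnj1 to the G protein-gated Kcnj3, Kcnj5, Kcnj6 and Kcnj9 and the glial Kcnj10, had their brightest probe set under the floor on all 6 arrays, with 5.61 the highest value of any. With Kcnj11 and Kcnj2 also at the floor, Kcnj8 was the one inward rectifier gene of the 15 with signal on any array, and it had it in control cells. The share under the floor over all genes was 45.5%. Of 3 such genes in the fit, 0 passed at an adjusted p under 0.05 in limma, and 0 at an unadjusted p under 0.05. Over all genes tested, 13.7% passed at the adjusted threshold. At the floor a change was not detectable, so the 0 is not read as fewer calls than that share.

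Other members of the ABCC family, to which the sulfonylurea receptors belong, were at the floor in 5 of 9 cases. Abcc1, an exporter of glutathione conjugates, read 10436, 10776 and 9891 in knockout cells, against 11849, 13615 and 12792 in control cells. It fell by 0.30 ± 0.06 on the log2 scale (limma adjusted p = 0.0498), and was the 1 of 5 tested that passed, against 13.7% of all genes. This call was lost with each single array left out and in most other settings. Abcc4, an exporter of cyclic nucleotides, had 1551 ± 108 in knockout cells and 1663 ± 47.5 in control cells and did not pass (log2 difference -0.10, limma adjusted p = 0.315).

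Other potassium channel genes were measured as 36 of 40 listed, and 30 of these were under the floor on all 6 arrays, among them the calcium-activated Kcnn3, Kcnn4 and Kcnma1. Of 17 that entered the fit, 1 rose, 2 fell and 14 were not called, where 13.7% of all genes tested passed. Those called were all among the 6 with signal, and 16.9% of all 9921 tested genes with signal passed. The median of the 6 was -0.16 on the log2 scale, against 0.06 over these 9921. Kcne3, an accessory subunit that keeps Kcnq1 channels open, read 9034, 8928 and 8880 in knockout cells, against 12994, 14063 and 13733 in control cells. All knockout arrays were lower, the log2 difference was -0.60 ± 0.03 (limma adjusted p = 0.00339), and it passed in all 6 fits without a single array. Kcnq1, the pore-forming subunit that Kcne3 can join, read 1547, 1964 and 1376 in knockout cells, against 3882, 4429 and 3743 in control cells. It fell by 1.31 ± 0.15 on the log2 scale (limma adjusted p = 0.0150), and its call was lost without control 1, control 3 or knockout 1, with an adjusted p of at most 0.0765 in limma.

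Kcnd3, which encodes the A-type channel Kv4.3, went the other way. Its bright probe set read 710, 587 and 930 in knockout cells, against 338, 289 and 349 in control cells, without overlap. It rose by 1.13 ± 0.19 on the log2 scale (limma adjusted p = 0.0297), lost its call without control 1, 2 or 3 or without knockout 1, and its other 3 probe sets were at the floor. The mechanosensitive Kcnk2 read 529, 633 and 774 in knockout cells, against 641, 628 and 652 in control cells, and overlapped. Kcnk6 and Kcnh1 did not pass (limma adjusted p = 0.204 and limma adjusted p = 0.231). The number of genes called on this list was 4 without control 2 and knockout 3 and 1 with controls 1 and 3 averaged. Among all 12279 genes tested, these settings called 4631 and 193.

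**Figure D3:**
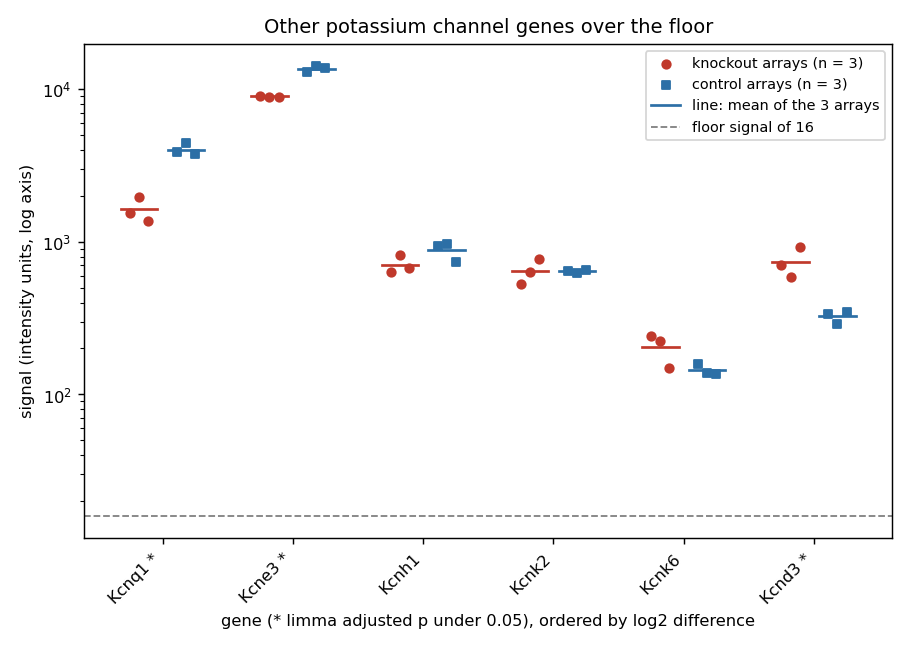
Signal in intensity units on a log axis of the 6 other potassium channel genes with signal, with 1 point per array and a line at each group mean. Kcnq1 and Kcne3 are lower and Kcnd3 higher in the knockout arrays without overlap, with an asterisk for a limma adjusted p under 0.05, and Kcnh1, Kcnk2 and Kcnk6 overlap.

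Channels that carry calcium, other cations or chloride were mostly measurable, and 1 of 15 tested passed, against 13.7% of all genes. Itpr2, an IP3 receptor that releases stored calcium, read 591, 516 and 705 in knockout cells, against 1058, 1191 and 1232 in control cells. It fell by 0.93 ± 0.13 on the log2 scale (limma adjusted p = 0.0210), and its call was lost without control 1, 2 or 3 or without knockout 1. The stretch-gated Piezo2 (-0.68, limma adjusted p = 0.0613) and the calcium-activated chloride channel Ano1 (0.68, limma adjusted p = 0.0652) did not overlap between groups and did not pass. Over all genes tested, groups did not overlap in 12.8% with the knockout arrays lower, as for Piezo2, and in 23.4% with them higher, as for Ano1. The median of the 13 genes with signal was -0.07. Without control 2 and knockout 3 the list had 4 called genes, where 4631 of all 12279 tested were called. With controls 1 and 3 averaged it had 0, where 193 of all were called. Of the sodium-potassium pump and potassium cotransporter genes, 0 of 6 tested passed in limma, against 13.7% of all genes. At an unadjusted p under 0.05 in limma 2 did so. The share of all genes at that threshold was not taken and is at least that 13.7%, so the 2 are not read as a result. The median of the 5 with signal was 0.13. Atp1b3, a pump subunit, read 14329, 12811 and 12646 in knockout cells, against 11150, 11486 and 11509 in control cells (limma adjusted p = 0.0707).

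Regulators and partners of KATP and Kir2 channels showed 1 gene higher and 1 lower among 15 tested, near the 13.7% of all genes that passed, with a median of 0.11 over the 13 with signal. The list had 4 called genes without control 2 and knockout 3 and 0 with controls 1 and 3 averaged. Among all 12279 genes tested, these settings called 4631 and 193. Prkce, the protein kinase C isoform known for protecting the heart in ischaemia, read 1518, 1530 and 1566 in knockout cells, against 1806, 1869 and 1834 in control cells. It fell by 0.25 ± 0.02 on the log2 scale (limma adjusted p = 0.00882), and its call was lost without control 1, control 3 or knockout 1. The call was also lost with the trend and robust options of eBayes (limma adjusted p = 0.136). Prkar2a, a regulatory subunit of protein kinase A, rose by 0.45 ± 0.08 (limma adjusted p = 0.0297). It had 6416 ± 594 in knockout cells and 4664 ± 104 in control cells (SD, n = 3 each), and lost its call without control 1, 2 or 3 or without knockout 1. Both calls were also lost with the mean of probe sets (limma adjusted p of 0.0616 for Prkce and 0.0623 for Prkar2a) and in some other settings. Cav1, the caveolar protein that binds Kir6.1, had 15707 ± 2150 in knockout cells and 15353 ± 2323 in control cells and overlapped.

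Because Kcnj8 and Abcc9 are widely used as pericyte markers, the cell types of the cultures were set beside the Kcnj8 values. All 14 listed pericyte markers, including the defining Pdgfrb, Cspg4, Rgs5, Notch3, Higd1b and Cox4i2, were under the floor on all 6 arrays, with 6.27 the highest value of any. Their summed signal ran from 66.2 to 67.8 in knockout cells and from 66.4 to 67.7 in control cells, which are background readings. The fibroblast, epithelial and mesothelial lists were also entirely under the floor. Of 9 smooth muscle markers 7 were under it, Acta2 and Myh11 included. Smtn, a protein of contractile filaments, rose by 1.34 ± 0.17 on the log2 scale (limma adjusted p = 0.0162, a call lost without control 1, control 3 or knockout 1). The list's summed signal was 1609 to 2249 in knockout cells and 659 to 916 in control cells, higher where Kcnj8 was at the floor. Most of this sum was Smtn, with 1774 ± 271 in knockout cells and 693 ± 108 in control cells (SD, n = 3 each), so the rise is mainly of 1 gene and not of the list. Tagln, the other marker with signal, had a higher mean in knockout cells but overlapped and did not pass (limma adjusted p = 0.144). The part of these genes in the Kcnj8 result was not tested.

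Of 8 leukocyte markers 7 were under the floor, Ptprc included. Cd68, a lysosomal glycoprotein, read 1032, 1126 and 756 in knockout cells, against 3834, 4252 and 3688 in control cells, and fell by 2.01 ± 0.17 (limma adjusted p = 0.00769, a call lost without control 1 or control 3). The summed signal of the list was 787 to 1157 in knockout cells and 3719 to 4284 in control cells. It was nearly all Cd68, so the fall beside that of Kcnj8 is of 1 gene and not of the list. Its part in the Kcnj8 result was not tested. All 14 endothelial markers were over the floor on at least 1 array, Vwf and Cldn5 being dim, and their summed signal ran from 151303 to 168621 in knockout cells and from 178356 to 192170 in control cells. Of these, 4 fell (Pecam1, Tek, Tie1 and Erg) and 10 did not pass, where 5.07% of all genes tested were called lower. Cdh5, Kdr and Cldn5 were also lower without overlap and did not pass (limma adjusted p of 0.114, 0.125 and 0.140). Robo4, a guidance receptor of endothelium, was the one listed marker higher without overlap and did not pass (limma adjusted p = 0.0612). It had 13276 ± 1066 in knockout cells and 10899 ± 296 in control cells (SD, n = 3 each). Over all genes tested, groups did not overlap in 12.8% with the knockout arrays lower and in 23.4% with them higher. Pecam1 and Tie1 lost their calls with each single array left out, Tek without control 1, control 3 or knockout 1, and Erg without control 1, 2 or 3 or knockout 1. Fewer cells of a type and less RNA per cell cannot be told apart in such bulk samples.

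**Figure D4:**
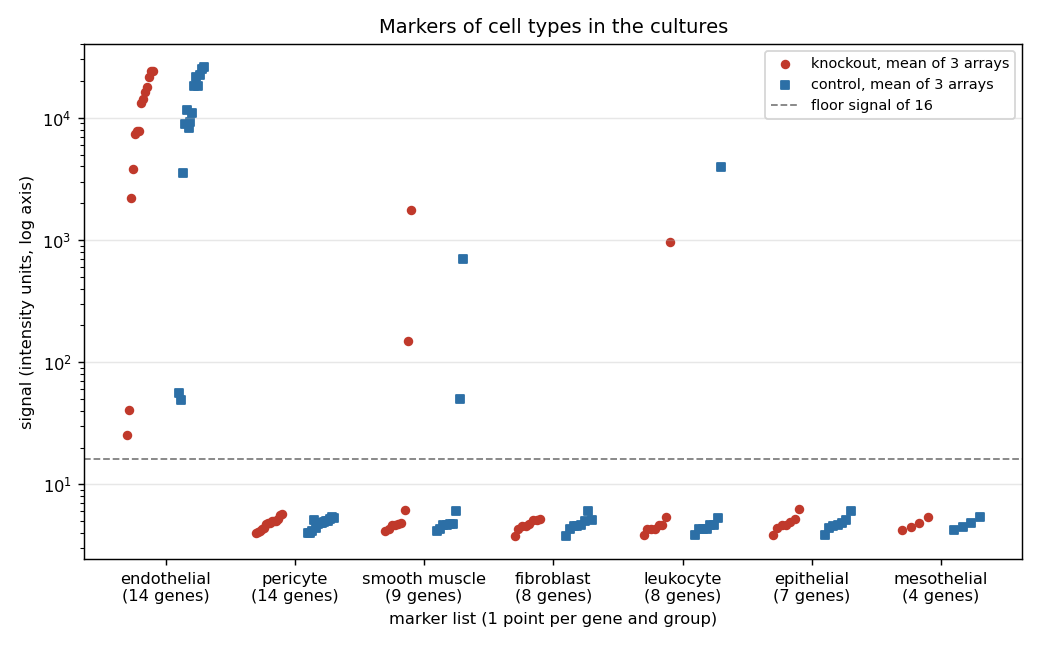
Mean signal over the 3 arrays of a group, in intensity units on a log axis, with 1 point per marker gene and group for 7 cell types. All 14 pericyte markers lie under the dashed floor of 16 in both groups, and 12 of the 14 endothelial markers lie far above it.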

How the data were processed

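The members and gene lists were chosen with earlier results of these data known. The deposited table gives a linear intensity for each probe set on each array. MAS5 and GCRMA are named, without versions or roles, per the submitters' processing notes. Quantiles were nearly equal between arrays, so nothing further was normalized. Of 45101 probe sets, 34958 had 1 gene in the platform annotation, 932 had several and 9211 were not listed. The 64 array controls and the dimmest 40% of probe sets were left out, leaving 27022. The brightest probe set stood for each of 12279 genes.

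Intensities deposited by the authors were taken as log2(intensity + 16), which understates the change of dim genes. The groups were compared with limma 3.58.1 in R 4.3.3 (eBayes, two-sided test, Benjamini-Hochberg over all genes, threshold 0.05). Single probe sets were fitted over all probe sets. On simulated data with 12279 genes, differences of 1 and 3 were recovered in 58% and 88% of cases, with 12 false among 137 calls. The simulated noise was drawn independently for each gene and array, unlike the correlated deviations of same-numbered arrays in these data. These rates may therefore not hold for the real arrays. Named genes were the members, the called genes of each list or otherwise its brightest, the nearest measured neighbours and the 5 genes most correlated with Kcnj8. Others named were chosen after their values were seen. Figures were drawn with matplotlib 3.10.9.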

Additional observations from a re-analysis of the deposited data

How the results depend on the processing

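The Kcnj8 difference kept its sign in all 19 alternatives. With groups this far apart the sign was in effect fixed in advance, so that count is no support. The difference was -6.91 with a pseudocount of 1, -3.43 with a pseudocount of 64 and -5.38 with each array's spike-in level as covariate. It was -5.23 to -4.81 with single arrays left out. The pseudocount sets how far a floor value lies from signal, so its size is not a fold. The other members were at the floor in both groups, and their small differences have no readable direction. Abcc9 was -0.32 with array weights, its one call, and -0.25 to -0.08 with single arrays left out. Kcnj11 was 0.0035 with 75th percentile scaling, 0.0028 with a pseudocount of 1 and 0.0041 with the mean of probe sets. Abcc8 was -0.0195 with the spike-in covariate and ran from -0.0048 to 0.0531 with single arrays left out.

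The number of called genes, 1684 over all arrays, ran from 206 (without control 1) to 3003 (without knockout 3) with single arrays left out. It was 893 without a filter, 8533 with array weights, 4631 without control 2 and knockout 3, 193 with controls 1 and 3 averaged and 441 with the spike-in covariate. With the replicate number as a block it was 2993. The deviations of same-numbered arrays correlated at -0.464, 0.844 and 0.804 for numbers 1 to 3. Whether such arrays share more than a number was not tested. The share of higher calls was 63.0% over all arrays and 37.2% with the spike-in covariate. The cause of these shifts was not tested. Genes under the floor on these arrays have no measurable level, and a change there would not have been seen.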
